A study of Sus scrofa with 17 samples.

Results

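The cytotoxic effector genes GZMA, GZMB, GZMH, GZMK, PRF1, NKG7, KLRK1, KLRB1 and TBX21 and the granzyme inhibitor gene SERPINB9 were followed in 17 pigs (Sus scrofa), in muscle of the right ventricle. These 10 genes were picked by symbol from a table of raw read counts for 35670 genes. All 10 were found, and all 10 were among the 15884 genes with enough counts to be tested. Every animal had right ventricular pressure overload, so that the groups share it. The multidose group (n = 7) had received mononuclear cells of umbilical cord blood (UCB-MNC) in several doses, the single dose group (n = 5) had received 1 dose, and the vehicle control group (n = 5) had received vehicle. Each library came from a different animal according to the series text. Age, breed, sex, weight, cell dose, the time of tissue collection and the origin of the cord blood were not stated for single libraries in the labels used here.

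Cytotoxic T cells and natural killer cells store a pore-forming protein, perforin, together with proteases called granzymes in secretory granules. On contact with a target cell the granules are released, perforin opens the target membrane, and the granzymes enter and cleave proteins whose cleavage leads to cell death. The killer cell itself, and neighbouring cells such as endothelium and dendritic cells, can be shielded by SERPINB9, a serpin that binds and blocks granzyme B. In a pressure-loaded heart such lymphocytes are a small part of the tissue, next to cardiomyocytes, fibroblasts, endothelium and macrophages. The roles given here and below are known mainly from human and mouse cells. In bulk tissue, fewer cells of a type and less RNA per cell cannot be told apart.

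The libraries held 21754800 to 61144663 counts. Their names divide them: 5 have a name starting in M1, namely multidose 1 to 4 and single dose 1, while the remaining 12, including all vehicle controls, start in M8 or M9. What the names mean is not stated in the labels, so "M1" stands here for nothing more than the start of a name. M1 libraries held 21754800 to 40969168 counts and M8 and M9 libraries 40621934 to 61144663. No vehicle control has an M1 name, so in a comparison of all multidose libraries with all controls the name and the dosing cannot be told apart. The value of each member and the median of each killing-machinery and T cell list against control are therefore given also within the 12 M8 and M9 libraries. The defining genes of ventricular muscle were abundant in every library, with 7 cardiomyocyte genes summing to 40324 to 71487 counts scaled to a common library size (CPM). Among general T cell genes, CD3D and CD3E were present in every library. The natural killer receptor genes KLRD1 and KLRF1 had no count in 8 and 9 of the 17 libraries. Other natural killer receptor and adaptor genes, namely KLRG1, NCR1, CD244, CD226, SLAMF7, FCER1G and TYROBP, were counted in every library. CRTAM had no count in 1 library.

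On the Sscrofa11.1 build, as RefSeq places the symbols, GZMB (ENSSSCG00000059880) lies at chr7:74705499-74708781 and GZMH (ENSSSCG00000001978) beside it at chr7:74723800-74727396. GZMK (ENSSSCG00000016901) lies at chr16:34217339-34226139. GZMA stands on 2 rows of the table. The row used here, ENSSSCG00000016903, had 1192 counts over the 17 libraries, whereas ENSSSCG00000016902 had 76, with 0 to 11 per library, and was too low to be tested. RefSeq also lists 2 places for the GZMA symbol, and none is given here. GZMB and GZMH, like the GZMA copies, are similar in sequence, and how the deposited counting treated reads that match both is not known, so their separate values are less certain than those of the other members. PRF1 (ENSSSCG00000010271) lies at chr14:73515306-73520256 and NKG7 (ENSSSCG00000003231) at chr6:58496089-58497827. The receptor genes KLRK1 (ENSSSCG00000040465, chr5:61646691-61655386) and KLRB1 (ENSSSCG00000039708, chr5:62244787-62257691) are on the same chromosome. TBX21 (ENSSSCG00000017517) lies at chr12:23996415-24009353 and SERPINB9 (ENSSSCG00000031615) at chr7:1723302-1732562.

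After cell dosing, none of the 10 genes passed the test against vehicle control once p-values were adjusted over all genes. In multidose hearts 8 of 10 members had a log2 fold change below 0, against 50.7% of all genes, and the median over the members was -0.60, beside -0.0051 over all genes tested. By edgeR's quasi-likelihood test 0 of 10 members had an adjusted p under 0.05, against 0% of all genes. At an unadjusted p under 0.05, 4 members were lower (PRF1, NKG7, TBX21 and SERPINB9, against 5.83% of all genes) and 1 was higher (GZMK, against 6.74% of all genes). In single dose hearts 9 of 10 members lay below 0, against 49.6% of all genes, with a median of -0.36, beside 0.0025 over all genes. There too 0 members and 0% of all genes passed by edgeR after adjustment, and SERPINB9 was the member with an unadjusted p under 0.05, against 2.84% of all genes in the lower direction. Both comparisons share the same 5 control libraries.

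Within the 12 M8 and M9 libraries the members' shift was smaller for multidose. There 7 of 10 members lay below 0, against 52.1% of all genes, and their median was -0.31, beside -0.012 over all genes. In those libraries SERPINB9 was the single member lower at an unadjusted p under 0.05, against 2.15% of all genes, and none was higher. For single dose 8 of 10 members lay below 0, against 50.6% of all genes, with a median of -0.32, beside -0.0033 over all genes, and SERPINB9 was again the one lower member, against 2.13% of all genes. No gene passed the adjustment by edgeR in either. Over all libraries DESeq2 called 8 genes for multidose and 10 for single dose, limma-voom called 0 for each, and neither called a member. At an unadjusted p under 0.05, edgeR had 1997 genes for multidose against control and 836 for single dose against control.

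**Figure D1:**
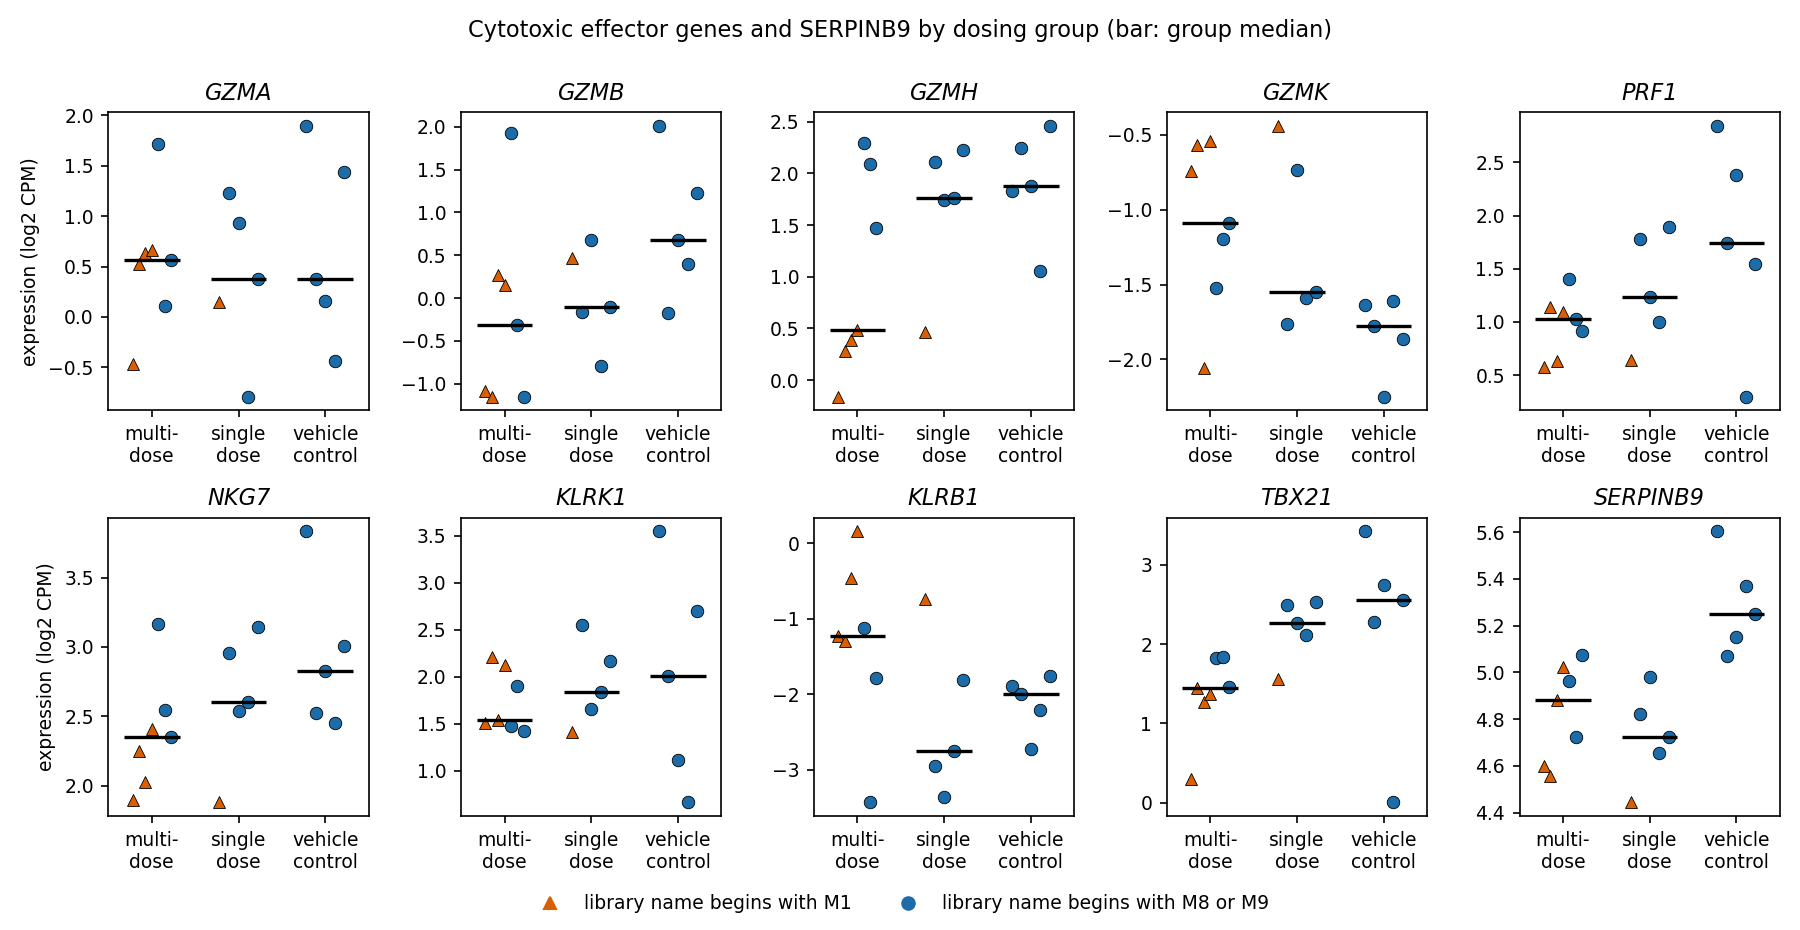
Expression of the 10 genes in log2 CPM (y axis, a separate scale for each gene) in every library of the multidose (n = 7), single dose (n = 5) and vehicle control (n = 5) groups, with a bar at each group median. Triangles are libraries with M1 names and circles those with M8 or M9 names. SERPINB9 is lower in every single dose library than in any control, whereas GZMH separates by name, with all 5 triangles below all 12 circles.

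GZMA encodes a tryptase-like granzyme, which cuts after basic residues. It measured 0.678 to 3.23 CPM in multidose libraries, with a median of 1.43 CPM, and the highest was multidose 5. In single dose libraries 1 to 5 it measured 1.06, 2.29, 1.86, 0.530 and 1.25 CPM. In vehicle controls 1 to 5 it measured 3.68, 1.25, 1.07, 0.694 and 2.67 CPM. The 3 groups overlapped over nearly their whole range. The log2 fold change against control was -0.27 (SE 0.44) for multidose and -0.42 (SE 0.47) for single dose, with adjusted p-values of 0.805 and 0.909 by edgeR. Within the M8 and M9 libraries the multidose value was -0.00018 (SE 0.56) and the single dose value was -0.34 (SE 0.54). Differences of this size lay within the spread of the animals, whose SD was 0.658 to 0.958 on the log2 CPM scale within groups.

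GZMB encodes the aspartate-cleaving granzyme that activates caspases and is the target of SERPINB9. It measured 0.403 to 3.75 CPM in multidose libraries with a median of 0.757 CPM, and 6 of the 7 were at or below 1.16 CPM. In single dose libraries 1 to 5 it was at 1.33, 0.847, 1.56, 0.530 and 0.883 CPM, and vehicle controls 1 to 5 had 3.99, 0.838, 1.55, 1.27 and 2.30 CPM. The median was lowest in multidose and highest in control libraries, but every pair of groups overlapped. GZMB had a log2 fold change of -0.79 (SE 0.52, edgeR adjusted p = 0.514) in multidose and of -0.96 (SE 0.58, edgeR adjusted p = 0.891) in single dose hearts. In the M8 and M9 libraries alone these were -0.31 (SE 0.66) and -1.07 (SE 0.62). Single libraries weighed on the multidose value, which was -1.49 without multidose 5 and -0.37 without vehicle control 1.

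GZMH encodes a chymase-like granzyme known from human natural killer cells. In multidose libraries 1 to 7 it measured 0.847, 1.17, 1.26, 1.35, 4.85, 4.20 and 2.72 CPM, so that the first 4, which have M1 names, stood well below the other 3. The values of single dose libraries 1 to 5 were 1.33, 4.28, 3.29, 3.34 and 4.63 CPM, where the low first library is again the M1 library. Vehicle controls 1 to 5 had 3.51, 4.68, 3.63, 2.02 and 5.46 CPM. Against control the log2 fold change was -0.70 (SE 0.41, edgeR adjusted p = 0.466) in multidose and -0.18 (SE 0.44, edgeR adjusted p = 0.958) in single dose hearts. Within the M8 and M9 libraries both were close to 0, at 0.012 (SE 0.29) for multidose and 0.006 (SE 0.27) for single dose.

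GZMK encodes a granzyme of memory-type CD8 T cells, and its fold changes had the opposite sign to those of its relatives. It was the least counted granzyme, with 4 to 27 counts per library. Multidose libraries 1 to 7 had 0.551, 0.627, 0.194, 0.640, 0.301, 0.390 and 0.423 CPM. Single dose libraries 1 to 5 had 0.690, 0.248, 0.553, 0.286 and 0.294 CPM, and vehicle controls 1 to 5 had 0.275, 0.245, 0.164, 0.281 and 0.228 CPM. Of the multidose libraries 6 of 7 were above every control, multidose 3 being the exception with 4 counts. GZMK had a log2 fold change of 0.90 (SE 0.36, edgeR adjusted p = 0.374) in multidose and of 0.75 (SE 0.38, edgeR adjusted p = 0.891) in single dose hearts. Among M8 and M9 libraries the 3 multidose values were all above the 5 control values, as for 0.774% of all genes, with a log2 fold change of 0.63 (SE 0.38, edgeR adjusted p = 0.999), and the single dose value in those libraries was 0.52 (SE 0.35). The prior count used for log2 CPM weighs on values this low.

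PRF1 encodes perforin. It ran from 1.44 to 2.60 CPM in multidose libraries with a median of 1.996 CPM, a narrow band. In single dose libraries 1 to 5 it was at 1.52, 3.39, 2.31, 1.96 and 3.66 CPM, and vehicle controls 1 to 5 had 7.14, 3.29, 5.18, 1.18 and 2.88 CPM. The controls held both the highest and the lowest library of the 17, and 4 of 5 controls were above every multidose library. The log2 fold change of PRF1 was -1.01 (SE 0.33, edgeR adjusted p = 0.366) in multidose and -0.61 (SE 0.36, edgeR adjusted p = 0.891) in single dose hearts. In M8 and M9 libraries alone it was -0.89 (SE 0.45) for multidose and -0.48 (SE 0.40) for single dose. Vehicle control 1 weighed on these values, and without it they were -0.68 and -0.27 over all libraries. Without vehicle control 4 they were -1.24 and -0.84.

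NKG7 encodes a membrane protein of the cytotoxic granule that takes part in its release. It measured 3.68 to 8.93 CPM in multidose libraries, with a median of 5.06 CPM. The values of single dose libraries 1 to 5 were 3.63, 7.71, 5.78, 6.02 and 8.81 CPM, and vehicle controls 1 to 5 had 14.2, 5.71, 7.04, 5.44 and 7.99 CPM. The medians followed the same order as for PRF1, again with overlap between every pair of groups. NKG7 had a log2 fold change of -0.59 (SE 0.26, edgeR adjusted p = 0.388) in multidose and -0.33 (SE 0.29, edgeR adjusted p = 0.891) in single dose hearts. Without vehicle control 1 the values were -0.28 and -0.026, and within the M8 and M9 libraries they were -0.31 (SE 0.31) and -0.20 (SE 0.28). The multidose value was -0.75 without multidose 5, and the single dose value was -0.48 without single dose 5.

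KLRK1 encodes NKG2D, an activating receptor that recognises stress-induced ligands on target cells. It measured 2.64 to 4.57 CPM in multidose libraries with a median of 2.86 CPM. Single dose libraries 1 to 5 had 2.62, 5.81, 3.12, 3.53 and 4.45 CPM. Vehicle controls 1 to 5 had 11.6, 3.99, 2.11, 1.54 and 6.43 CPM, a wider spread than in either dosed group, with an SD of 1.17 on the log2 CPM scale against 0.331 in multidose and 0.443 in single dose libraries. The log2 fold change was -0.61 (SE 0.38, edgeR adjusted p = 0.491) in multidose and -0.39 (SE 0.41, edgeR adjusted p = 0.904) in single dose hearts. These rested on vehicle control 1, since without it they were -0.055 and 0.16. Without vehicle control 4 they were -0.83 and -0.62. Within the M8 and M9 libraries, vehicle control 1 included, they were -0.77 (SE 0.54) and -0.29 (SE 0.48). Of 6 listed ligand genes of natural killer receptors, CLEC2B and ULBP1 were in the table and tested. The list is not limited to ligands of KLRK1, so its median does not describe them alone. That median log2 fold change was 0.017 in multidose and -0.40 in single dose hearts, with 0 at an unadjusted p under 0.05 in either.

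KLRB1 encodes CD161, a lectin-like receptor of natural killer cells and of some T cells. It was the member with the fewest counts, at 2 to 45 per library. Multidose libraries 1 to 7 had 0.381, 0.358, 0.678, 1.07, 0.411, 0.0459 and 0.242 CPM. In single dose libraries 1 to 5 it was at 0.552, 0.0826, 0.0502, 0.102 and 0.239 CPM, and vehicle controls 1 to 5 had 0.224, 0.204, 0.104, 0.169 and 0.248 CPM. The highest value in each dosed group was that of an M1 library. Multidose 5, which has no M1 name, was above the M1 libraries multidose 1 and multidose 2. KLRB1 had a log2 fold change of 1.25 (SE 0.60, edgeR adjusted p = 0.401) between multidose and control, and -0.0013 between single dose and control. In the M8 and M9 libraries these were 0.27 (SE 0.61) and -0.63 (SE 0.59).

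TBX21 encodes T-bet, the transcription factor that drives the effector program of type 1 helper, cytotoxic T and natural killer cells. It measured 1.19 to 3.53 CPM in multidose libraries with a median of 2.69 CPM. The values of single dose libraries 1 to 5 were 2.90, 5.58, 4.75, 4.28 and 5.74 CPM, and vehicle controls 1 to 5 had 10.7, 4.81, 6.65, 0.956 and 5.81 CPM. Every multidose library was below 4 of the 5 single dose libraries and 4 of the 5 controls, the exceptions being the M1 library single dose 1 and vehicle control 4. The log2 fold change of TBX21 was -1.12 (SE 0.38, edgeR adjusted p = 0.366) for multidose against control and -0.31 (SE 0.41, edgeR adjusted p = 0.915) for single dose against control. TBX21 was also the member with an unadjusted p under 0.05 between multidose and single dose, with a log2 fold change of -0.81 (SE 0.38, edgeR adjusted p = 1), against 1.22% of all genes in the lower direction. For multidose against control the value was -0.84 (SE 0.50) in M8 and M9 libraries, -0.77 without vehicle control 1 and -1.39 without vehicle control 4.

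SERPINB9 was the member that stood farthest from the animal-to-animal spread in both dosing comparisons. Multidose libraries 1 to 7 had 24.2, 23.5, 29.4, 32.5, 31.2, 26.4 and 33.6 CPM, an average of 28.7 ± 4.04 CPM (SD, n = 7). Single dose libraries 1 to 5 had 21.7, 28.3, 31.6, 25.1 and 26.4 CPM, an average of 26.6 ± 3.65 CPM (SD, n = 5). Vehicle controls 1 to 5 had 48.6, 33.5, 35.5, 41.3 and 38.0 CPM, an average of 39.4 ± 5.90 CPM (SD, n = 5). All 5 single dose libraries were below all 5 controls, which held for 0.453% of all genes, and 6 of 7 multidose libraries were below all controls, multidose 7 overlapping with vehicle control 2 by a small margin. The dosed groups did not separate from each other, with a log2 fold change of 0.11 (SE 0.12, edgeR adjusted p = 1) for multidose against single dose.

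For SERPINB9 the log2 fold change against control was -0.46 (SE 0.12, edgeR adjusted p = 0.366) in multidose and -0.57 (SE 0.13, edgeR adjusted p = 0.755) in single dose hearts. By unadjusted p it ranked 38 and 7 among the 15884 genes, and it did not pass the adjustment in either. Within the M8 and M9 libraries the values were -0.39 (SE 0.14) and -0.51 (SE 0.13), and edgeR put the adjusted p of each at 0.999. In those libraries the 4 single dose values were again all below the 5 controls, as for 0.63% of all genes. Over the 17 fits that each left out a library, SERPINB9 lay between -0.51 and -0.37 for multidose and between -0.63 and -0.48 for single dose. DESeq2 gave an adjusted p of 0.0588 for single dose, where edgeR gave 0.387 to 0.9997 over the fits that left out a library and 0.663 to 0.999 over its other settings, and limma-voom gave 0.976.

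**Figure D2:**
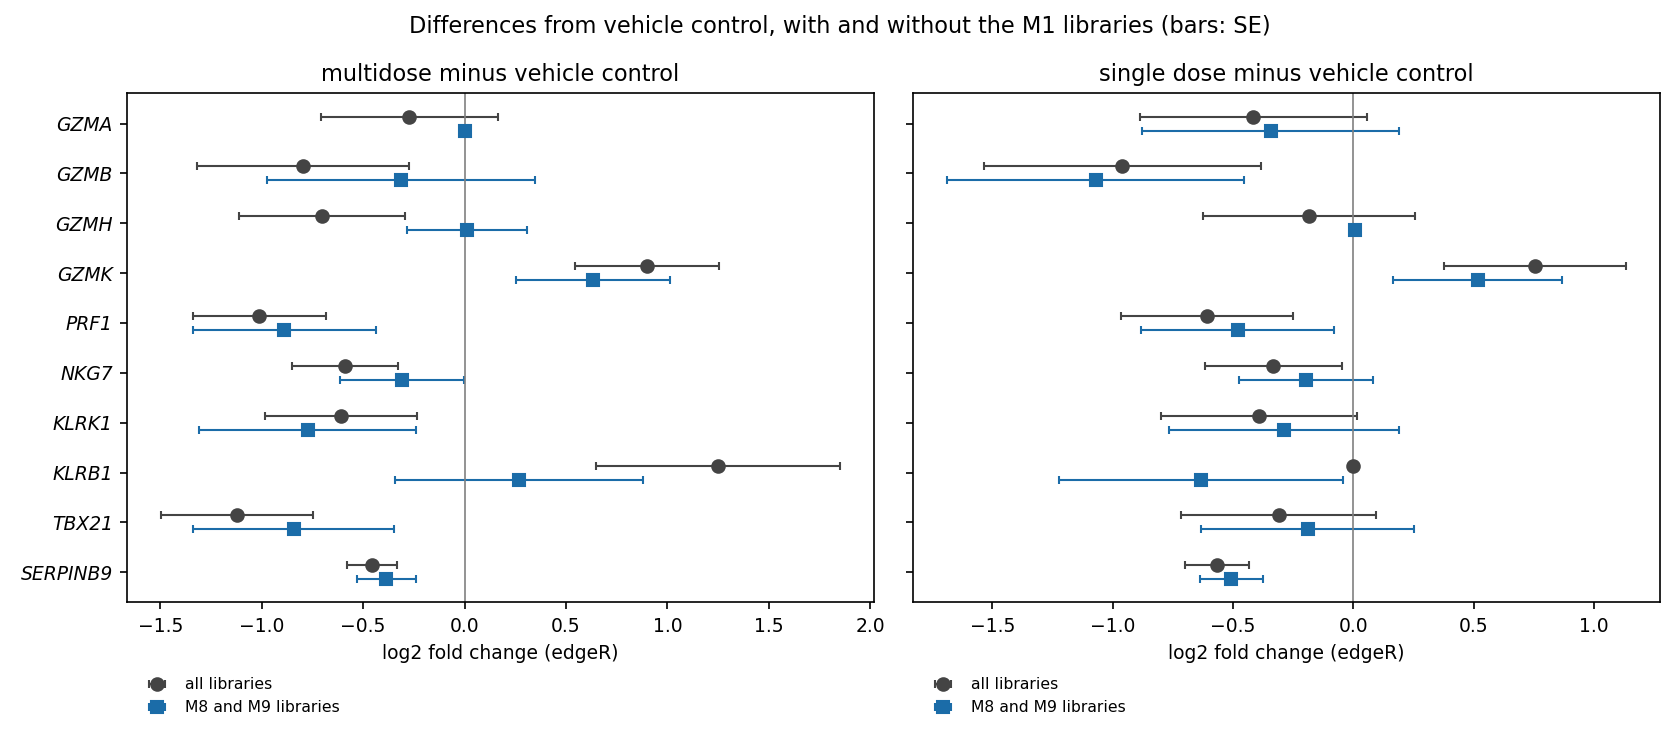
Log2 fold changes by edgeR (x axis) of the 10 genes for multidose minus vehicle control (left) and single dose minus vehicle control (right), from all 17 libraries (circles) and from the 12 M8 and M9 libraries (squares). Bars are 1 SE, drawn where the value was at least 0.01 from 0. SERPINB9 has the shortest bars and lies below 0 in all 4 estimates, whereas GZMH is near 0 in the M8 and M9 libraries.

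SERPINB9 RNA can come from cells other than lymphocytes, and the levels of such cell types were set beside it. The 7 endothelial genes PECAM1, CDH5, VWF, TEK, KDR, EMCN and ERG summed to 744 to 1188 CPM in multidose libraries (median 994), 902 to 1011 CPM in single dose libraries (median 939) and 839 to 1412 CPM in controls (median 1090.0). Of these 7 genes 6 were below 0 in single dose hearts with a median log2 fold change of -0.11, and 4 were below 0 in multidose hearts with a median of -0.075. VWF, the von Willebrand factor gene, had -0.53 (SE 0.20) in multidose and -0.46 (SE 0.22) in single dose hearts, with adjusted p-values of 0.370 and 0.891 by edgeR. EMCN, which encodes endomucin, had 0.32 (SE 0.19) in multidose hearts. Within the M8 and M9 libraries the endothelial medians were -0.34 for multidose and -0.15 for single dose. The 5 dendritic cell genes present summed to 4.23 to 8.56 CPM, 3.79 to 7.67 CPM and 4.26 to 8.88 CPM in the multidose, single dose and control groups. Of these 5 genes 3 were above 0 in multidose hearts (median 0.11) and 3 in single dose hearts (median 0.19). The 2 below 0 in multidose hearts were XCR1, at -0.64 (SE 0.29), and FLT3, at -0.67 (SE 0.46). Within the M8 and M9 libraries all 5 were below 0 for multidose (median -0.54) and 2 for single dose (median 0.024). Mast cell genes, with 3 of 5 present, summed to 27.7 to 59.9 CPM in multidose libraries, 31.4 to 42.3 CPM in single dose libraries and 32.1 to 90.1 CPM in controls. Of the mast cell genes KIT had -0.71 (SE 0.28) and MS4A2 had 0.87 (SE 0.36) in multidose hearts, neither passing after adjustment. The part of these cell types in the SERPINB9 difference was not tested.

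By library name, GZMH fell and KLRB1 rose in M1 libraries, with the dosing group as a term in the fit. These were 2 of 10 members passing the adjusted threshold, against 5.92% of all genes in the higher and 8.06% in the lower direction. GZMH measured 0.847, 1.17, 1.26 and 1.35 CPM in multidose 1 to 4 and 1.33 CPM in single dose 1, against 2.02 to 5.46 CPM (median 3.91) in the 12 M8 and M9 libraries. All M1 libraries were thus below all others, as for 3.01% of all genes. The log2 fold change was -1.69 (SE 0.26, edgeR adjusted p = 0.00145). Within the multidose group alone, 4 M1 libraries against 3 others, it was -1.75 (SE 0.30, edgeR adjusted p = 0.0229), where 2.19% of all genes passed in the lower direction.

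KLRB1 measured 0.381, 0.358, 0.678 and 1.07 CPM in multidose 1 to 4 and 0.552 CPM in single dose 1, against 0.0459 to 0.411 CPM (median 0.187) in M8 and M9 libraries. Multidose 5 was the M8 or M9 library that overlapped. Its log2 fold change was 1.68 (SE 0.50, edgeR adjusted p = 0.0340). The call rests on few counts and on single libraries. It was lost without single dose 1 (1.46, edgeR adjusted p = 0.168), multidose 3 (1.68, adjusted p = 0.0529), multidose 4 (1.44, adjusted p = 0.0808) or multidose 6 (1.40, adjusted p = 0.0793), and the adjusted p ran from 0.000698 to 0.240 over the other settings. Within the multidose group alone the log2 fold change was 1.46 (SE 0.70, edgeR adjusted p = 0.240).

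Of the members that did not pass by name in edgeR, NKG7 came nearest, at 3.63 to 5.26 CPM in M1 libraries and 5.06 to 14.2 CPM in M8 and M9 libraries. Its log2 fold change was -0.69 (SE 0.25, edgeR adjusted p = 0.0787), and without vehicle control 1 the adjusted p was 0.0270. DESeq2 called NKG7 by name together with GZMH and KLRB1, among 3003 genes, and limma-voom called GZMH and KLRB1. TBX21 measured 1.19 to 2.90 CPM in M1 libraries and 0.956 to 10.7 CPM in M8 and M9 libraries, with a log2 fold change of -0.64 (SE 0.41, edgeR adjusted p = 0.307). Within the multidose group its 4 M1 libraries were all below the 3 others, as for 11.9% of all genes. GZMA, GZMB and PRF1 had values of -0.54 (SE 0.48), -0.54 (SE 0.56) and -0.44 (SE 0.37), and GZMK had 0.63 (SE 0.34). SERPINB9 had -0.21 (SE 0.13, edgeR adjusted p = 0.268), at 21.7 to 32.5 CPM in M1 libraries and 25.1 to 48.6 CPM in M8 and M9 libraries. KLRK1 differed by -0.0050. Among the granzymes GZMH alone passed by name, and differences between granzymes were not tested.

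**Figure D3:**
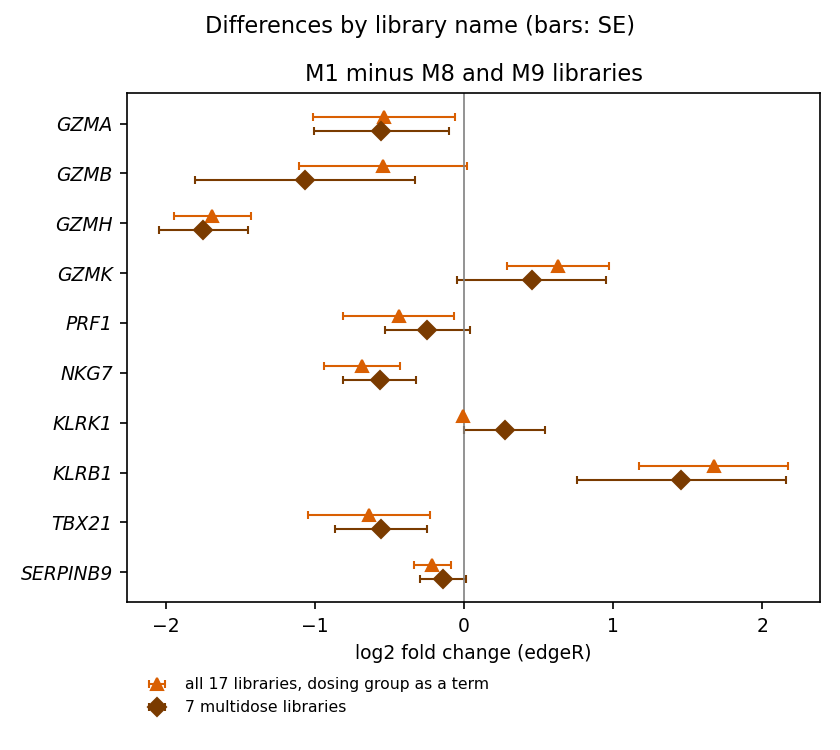
Log2 fold changes by edgeR (x axis) of the 10 genes for M1 minus M8 and M9 libraries, from all 17 libraries with the dosing group as a term (triangles) and from the 7 multidose libraries alone (diamonds). Bars are 1 SE, drawn where the value was at least 0.01 from 0. GZMH lies at -1.69 and -1.75, and KLRB1 at 1.68 and 1.46 with wider bars.

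Some genes listed as markers of other tissue and cell types differed by library name too. Of all genes, 5.92% passed in the higher and 8.06% in the lower direction, and 51.4% lay below 0. In the higher direction 2 of 6 fibroblast, 1 of 4 erythroid, 1 of 7 endothelial and 1 of 2 mast cell genes passed. In the lower direction 2 of 2 atrial and 1 of 2 mast cell genes passed. Of the listed atrial genes, NPPA, which encodes atrial natriuretic peptide, fell in M1 libraries, at -3.86 (SE 0.62, edgeR adjusted p = 0.00223). SLN, which encodes sarcolipin, fell too, at -2.91 (SE 0.84, edgeR adjusted p = 0.0323). With MYBPHL, the 3 atrial genes present summed to 61.4 to 204 CPM in M1 libraries. In M8 and M9 libraries they summed to 595 to 4841 CPM, without overlap. The sum was nearly all NPPA, at a median of 976 CPM over the 17 libraries, beside 6.44 CPM for SLN. MYBPHL had no count in 11 of the 17. Whether the NPPA difference reflects atrial tissue was not tested. The fibroblast genes PDGFRA and DCN rose, at 1.25 (SE 0.24, edgeR adjusted p = 0.00476) and 0.92 (SE 0.21, adjusted p = 0.00994). All 6 fibroblast genes lay above 0 by name (median 0.48), and they summed to 2442 to 4032 CPM in M1 libraries and 1663 to 3955 CPM in M8 and M9 libraries. Of 4 erythroid genes all lay above 0 (median 1.79) and AHSP, a haemoglobin chaperone gene, rose at 2.30 (SE 0.73, edgeR adjusted p = 0.0441), while the list summed to 96.8 to 638 CPM in M1 libraries and 25.9 to 505 CPM in M8 and M9 libraries. AHSP itself was low, with a median of 0.286 CPM and a minimum of 0.0251 CPM over all libraries. In the endothelial list 6 of 7 lay above 0 (median 0.33) and TEK, the angiopoietin receptor gene, rose at 0.69 (SE 0.19, edgeR adjusted p = 0.0250). Of 2 mast cell genes tested, MS4A2 rose at 1.14 (SE 0.31, edgeR adjusted p = 0.0232) and KIT fell at -0.79 (SE 0.24, adjusted p = 0.0397). In the cardiomyocyte (7 tested), macrophage (9), B cell (6), dendritic cell (5) and neutrophil (1) lists none passed by name. The part of these tissue and cell types in the GZMH and KLRB1 differences was not tested.

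Other genes of the killing machinery were described by lists of textbook genes. Of 14 genes for loading and releasing granules that were tested, 11 lay below 0 in multidose hearts (median -0.41) and 12 in single dose hearts (median -0.20), with 0 passing in either by edgeR after adjustment. In M8 and M9 libraries the medians were -0.27 and -0.12. In multidose hearts 4 of the 14 were lower and 1 was higher at an unadjusted p under 0.05, against 5.83% and 6.74% of all genes, and within the M8 and M9 libraries 0 were. STXBP2, a syntaxin-binding protein of granule fusion, had -0.55 (SE 0.20), and CTSC, the cathepsin that activates granzymes, had 0.34 (SE 0.14). GZMM, a further granzyme gene, had -0.82 (SE 0.36), and UNC13D, a priming factor of granule release, had -0.51 (SE 0.22). GNLY, the granulysin gene, had -0.15 (SE 0.38) in multidose and -0.20 (SE 0.41) in single dose hearts. In M1 libraries UNC13D fell by 0.75 on the log2 scale (SE 0.18, edgeR adjusted p = 0.0127) and RAB27A, the small GTPase that docks the granules, rose by 0.90 (SE 0.22, edgeR adjusted p = 0.0141). This was 1 gene of the 14 in each direction, near the 8.06% of all genes that fell and the 5.92% that rose by name.

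Among natural killer receptor and adaptor genes 8 of 15 were tested, of which 6 lay below 0 in multidose hearts (median -0.56) and 6 in single dose hearts (median -0.21). In M8 and M9 libraries 8 and 5 lay below 0, with medians of -0.45 and -0.27. KLRG1, an inhibitory receptor of mature effector cells, had -1.42 (SE 0.44) and SLAMF7, an activating receptor, had -0.70 (SE 0.32) in multidose hearts, with adjusted p-values of 0.366 and 0.393 by edgeR. By name, NCR1, which encodes the natural killer receptor NKp46, rose by 1.93 (SE 0.51, edgeR adjusted p = 0.0211) in M1 libraries, the same direction as KLRB1 and opposite to GZMH, and was 1 of 8 passing, against 5.92% of all genes in that direction. NCR1 was a low gene like KLRB1, with a median of 0.301 CPM and a minimum of 0.0612 CPM over the 17 libraries.

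Of 15 tested transcription factor, cytokine and cytokine receptor genes of effector lymphocytes, 11 lay below 0 in multidose hearts (median -0.33) and 9 in single dose hearts (median -0.19). In M8 and M9 libraries the counts were 10 and 9, with medians of -0.16 and -0.096. RUNX3, a partner of T-bet in CD8 T cells, had -1.18 (SE 0.34) and the chemokine gene CCL5 had -1.07 (SE 0.43) in multidose hearts, with adjusted p-values of 0.366 and 0.376 by edgeR. In M1 libraries 3 of the 15 fell, namely RUNX3 at -1.02 (SE 0.31, edgeR adjusted p = 0.0354), IL2RB at -0.76 (SE 0.23, adjusted p = 0.0348) and CCL5 at -1.41 (SE 0.36, adjusted p = 0.0172), and 0 rose, against 8.06% and 5.92% of all genes. Of 10 granzyme substrates and other serpins, 7 lay above 0 in multidose hearts (median 0.17) and 6 in single dose hearts (median 0.034). In M8 and M9 libraries 8 and 4 lay above 0, with medians of 0.11 and -0.023. SERPINB10 and SERPINB6, relatives of SERPINB9, had 1.03 (SE 0.39) and 0.34 (SE 0.15) in multidose hearts, the opposite sign to SERPINB9, and adjusted p-values of 0.370 and 0.388 by edgeR. SERPINB10 also rose in M1 libraries by 1.15 (SE 0.33, edgeR adjusted p = 0.0284), 1 of the 10, against 5.92% of all genes.

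T cell receptor and coreceptor genes, which mark T cells whether or not they carry granules, lay on the same side of 0 as most members over all libraries. All 12 tested lay below 0 in multidose hearts (median -0.69) and 11 of 12 in single dose hearts (median -0.13), with 0 passing by edgeR after adjustment. Within the M8 and M9 libraries 9 of 12 lay below 0 for multidose (median -0.24) and 7 of 12 for single dose (median -0.014). CD8A, the coreceptor of cytotoxic T cells, had -1.33 (SE 0.35) and CD3E had -1.15 (SE 0.37) in multidose hearts, with an adjusted p of 0.366 each by edgeR. In M1 libraries 5 of the 12 fell and 0 rose, with log2 fold changes of -1.18 for CD3D, -1.28 for CD3E, -1.45 for CD5, -1.64 for CD6 and -2.18 for CD8B and with adjusted p-values from 0.00944 for CD8B up to 0.0131 for CD3D by edgeR. The 5 of 12 stand against 8.06% of all genes that fell by name. CD8B was low, with a median of 0.613 CPM and a minimum of 0.0423 CPM over all libraries. Within the multidose group alone CD3E was the 1 of 12 that fell, against 2.19% of all genes. Summed over the list, these genes reached 14.9 to 50.9 CPM in multidose libraries (median 25.5), 23.2 to 55.4 CPM in single dose libraries (median 36.3) and 23.7 to 59.6 CPM in controls (median 46.7). By name the sums were 14.9 to 25.5 CPM in M1 libraries and 23.7 to 59.6 CPM in M8 and M9 libraries. The part of T cell content in the members' differences was not tested.

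The 6 granule genes GZMA, GZMB, GZMH, GZMK, PRF1 and NKG7 summed to 7.62 to 23.7 CPM in multidose libraries (median 11.9), 9.57 to 19.5 CPM in single dose libraries (median 15.3) and 10.9 to 32.8 CPM in controls (median 18.6). Divided by the T cell sum of the same library, they came to 0.358 to 0.511 in multidose, 0.289 to 0.539 in single dose and 0.395 to 0.550 in control libraries. The medians of this ratio were 0.465, 0.413 and 0.427, with the multidose median the highest and all groups overlapping. By name it was 0.409 to 0.511 in M1 libraries (median 0.468) and 0.289 to 0.550 in M8 and M9 libraries (median 0.421). Divided by SERPINB9, the granule sum came to 0.315 to 0.759 in multidose (median 0.368), 0.441 to 0.740 in single dose (median 0.504) and 0.264 to 0.675 in control libraries (median 0.524), with all groups overlapping.

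**Figure D4:**
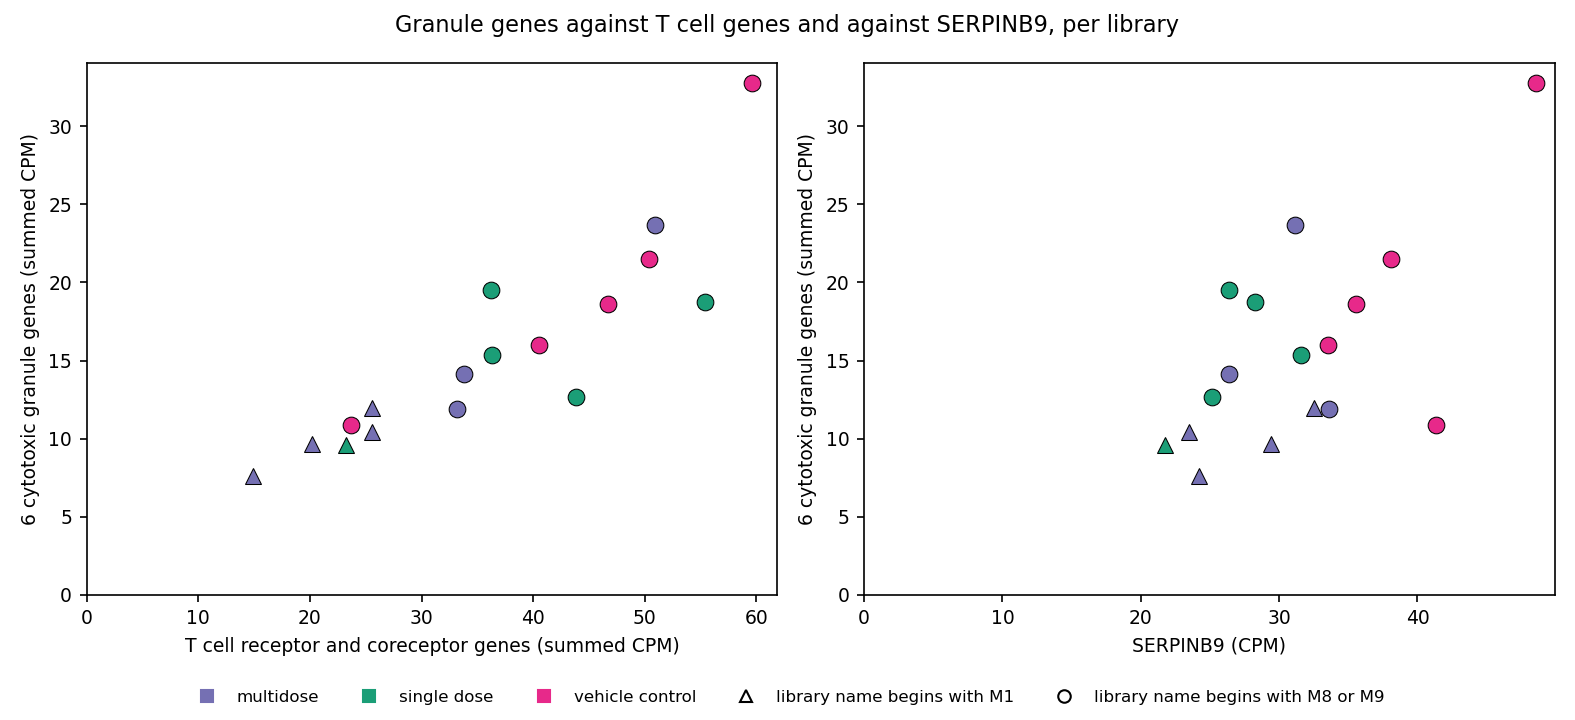
Summed CPM of the 6 granule genes (y axis) against the summed CPM of the T cell receptor and coreceptor genes (left) and against SERPINB9 CPM (right), 1 point per library, coloured by dosing group and shaped by library name. On the left the libraries with more T cell RNA mostly have more granule gene RNA, and no correlation of the sums was computed. The lowest granule sum is an M1 multidose library with 7.62 CPM and the highest a vehicle control with 32.8 CPM. Single dose 2 is an exception, with 55.4 CPM of T cell genes and 18.8 CPM of granule genes. Single dose 5 has 36.2 and 19.5 CPM. On the right the controls lie at 33.5 to 48.6 CPM of SERPINB9, over a wide range of granule sums, and the dosed libraries at 21.7 to 33.6 CPM, with multidose 7 just past vehicle control 2.

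Over the 17 libraries the members fell into genes that varied together and genes that did not, as Pearson correlations of log2 CPM describe. The libraries share group, name and depth, so these values describe this set of libraries. PRF1 and TBX21 had r = 0.89, PRF1 and NKG7 0.83, and NKG7 and TBX21 0.75. In the 12 M8 and M9 libraries the same pairs had 0.90, 0.77 and 0.66. GZMA and GZMB had 0.68 over 17 libraries and 0.70 over 12. GZMH and NKG7 had 0.75 over 17 but 0.40 over 12, and GZMH and KLRB1 had -0.60 over 17 and 0.19 over 12, so these relations differ once M1 libraries are left out. GZMK had a negative r with 8 of the other 9 members over 17 libraries, down to -0.58 with GZMH. SERPINB9 had 0.60 with its target GZMB over both sets. With NKG7 it also had 0.60 over 17 libraries, but 0.38 over 12. It had 0.46 with GZMA over 17 and 0.40 over 12, and 0.46 with PRF1 over 17 and 0.30 over 12. With GZMH it had 0.39 over 17 and -0.31 over 12, and with TBX21 0.28 over 17 and 0.029 over 12.

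**Figure D5:**
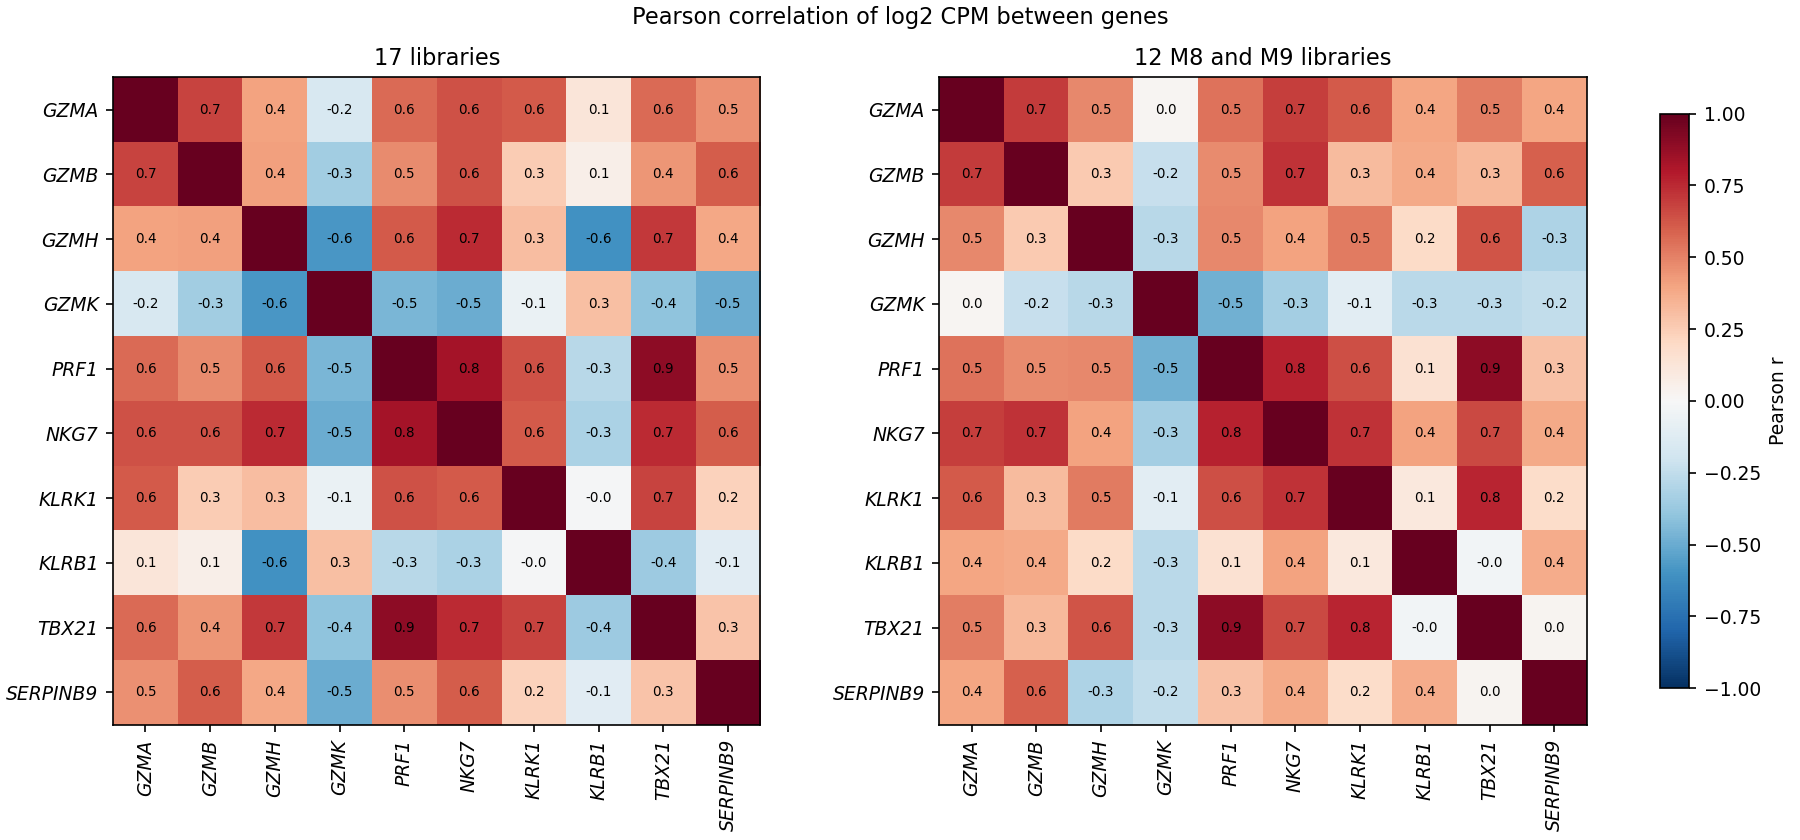
Pearson correlation of log2 CPM between each pair of the 10 genes over all 17 libraries (left) and over the 12 M8 and M9 libraries (right), with red above 0 and blue below 0. PRF1, NKG7 and TBX21 keep values of 0.66 or more in both panels, whereas the pair GZMH and KLRB1 has -0.60 on the left and 0.19 on the right.

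The genes whose log2 CPM was most like each member over the 17 libraries were then listed, 3 per member, with r also over the 12 M8 and M9 libraries. For PRF1 they were GPR55 (r = 0.96 and 0.96), RAC2 (0.93 and 0.92) and IKZF3 (0.91 and 0.94). For TBX21 they were SPN (0.94 and 0.96), RAC2 (0.94 and 0.95) and CD226 (0.92 and 0.97), and RAC2 was thus on both lists. NKG7 was most like IL2RG (0.90 and 0.88), CCL5 (0.90 and 0.89) and MYO1G (0.90 and 0.86), and KLRK1 most like ITGA4 (0.87 and 0.90), S100A4 (0.86 and 0.89) and BIN2 (0.84 and 0.86).

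SERPINB9 was most like ADGRG1 (0.94 and 0.95), LRP11 (0.90 and 0.85) and CDC42EP4 (0.88 and 0.87), and shared none of these with another member. GZMH was most like PVRIG (0.95 and 0.76), TMCO6 (0.92 and 0.67) and NDOR1 (0.92 and 0.59), and KLRB1 most like RNASE4 (0.90 and 0.77), ITM2B (0.89 and 0.69) and SP3 (0.88 and 0.76). For GZMH and KLRB1, the members that differ by name, the values were lower over the 12 libraries. This was not particular to them, since all values of GZMB, GZMK and NKG7 were lower there too. The listed genes were picked for a high r over the 17 libraries. GZMA was most like SULT2B1 (0.76 and 0.80), GBP2 (0.76 and 0.82) and ZCWPW1 (0.74 and 0.81). GZMB was most like CLN3 (0.82 and 0.80), FYB1 (0.81 and 0.76) and CEP152 (0.79 and 0.75), and GZMK most like IFT81 (0.78 and 0.51), RBMX2 (0.78 and 0.75) and POLI (0.77 and 0.57).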

How the data were processed

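RNA from flash-frozen right ventricle was extracted with TRIzol and sequenced on an Illumina NextSeq, per the labels' protocols. The authors deposited raw counts per Ensembl gene, which were used as they stand. The tools in the submitters' processing notes are HISAT2 2.1.0 and Subread 1.6.2, beside FastQC 0.11.7, Trimmomatic 0.33 and SAMtools 1.7, with the build Sscrofa11.1. The sources used here give neither the strand setting nor the annotation release, and without strand, reads of overlapping antisense genes cannot be told apart. Symbols come from the table, and 119 genes were named by a RefSeq reference table. Sequences and transcript lengths were not used here, so the CPM of different genes are not corrected for length. Sums and ratios over several genes serve to compare libraries, and do not give the relative amounts of transcripts of different genes.

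In R 4.3.3, edgeR 4.0.16 was run with filterByExpr, TMM scaling and a robust quasi-likelihood fit of all libraries with 1 coefficient per group. Tests were two-sided, with Benjamini-Hochberg adjustment over all 15884 genes and a threshold of 0.05. SE is the log2 fold change divided by the root of F. CPM uses TMM-scaled totals, and log2 CPM a prior count of 2. Smaller libraries give less precise values: M1 libraries held a median of 22688415 counts and the others 48872847. DESeq2 1.42.0 and limma 3.58.1 voom were alternatives. The method was tested on simulated data.

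Samples were grouped by their titles, and library names come from the labels. The members, gene lists, library split and tests were chosen with earlier results of these data known. Every member is named, and, of each list described by genes, the 2 with the smallest p for multidose against control and all that passed in any comparison (B cell, macrophage, neutrophil and cardiomyocyte markers, of which none passed, are given as counts, and for fibroblast, atrial and erythroid markers the genes that passed by name), with GZMM and GNLY added after their values were seen.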

Additional observations from a re-analysis of the deposited data

Results flagged for a closer look

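Each of the 10 genes was examined for an outlying library in each of the 3 dosing groups, 30 groups of values in all, and 2 were marked because 1 library lay far from the rest by Dixon's criterion. Chance marks about 1 in 20 such groups. GZMH in single dose 1 was at 0.466 log2 CPM, while the other 4 single dose libraries lay between 1.74 and 2.23. The gap was 0.723 of the group's range, over the critical value of 0.71 for 5 libraries. Single dose 1 is the M1 library of its group, and the 4 multidose libraries with M1 names were similarly low for GZMH. TBX21 in multidose 1 was at 0.302 log2 CPM, while the other 6 multidose libraries lay between 1.27 and 1.84, a gap of 0.633 of the range against a critical value of 0.568. The other 3 multidose libraries with M1 names were at 2.37 to 2.69 CPM of TBX21, just below the 2.70 to 3.53 CPM of the 3 multidose libraries with M8 or M9 names. Without multidose 1 the log2 fold change of TBX21 for multidose against single dose was -0.69 instead of -0.81.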

How the results depend on the processing

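No member passed for any dosing comparison under any alternative run. In multidose against control DESeq2 called 8 genes and the replicate block 1. In single dose against control DESeq2 called 10, and leaving out a library gave 0 to 1, with 1 gene without single dose 2. By name the counts of genes were 3003 with DESeq2, 4553 with limma-voom, 3783 without the dosing group as a term, 666 in the multidose libraries alone and 11 with the replicate block, and they ran from 879 without single dose 1 to 2750 over the fits that left out a library, with 1244 without multidose 6 and 1451 without multidose 5. The members passing by name were 3 with DESeq2, 5 without the dosing term (GZMK, 0.83, edgeR adjusted p = 0.0491, and TBX21, -1.07, adjusted p = 0.0412, joining GZMH, NKG7 and KLRB1), 1 with a minimum of 1 CPM in 5 libraries (which left out GZMK and KLRB1), 1 in the multidose libraries alone, 1 after thinning, 0 with the replicate block, and 1 to 3 when a library was left out. Thinning all libraries to the shallowest total was chosen after seeing the data. Same-numbered libraries had correlations of -0.218 to 0.407 between their deviations from the group means, not all over 0.1, and the labels do not say that a number pairs animals. With the replicate block GZMH was at -1.35 (edgeR adjusted p = 0.120) and KLRB1 at 2.08 (adjusted p = 0.182). GZMH passed by name in all 17 fits that left out a library, at -1.81 to -1.56.

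Signs reversed for values near 0 and also for some farther from it. The latter included GZMH, at -0.70 in multidose against control and -0.52 in multidose against single dose over all libraries. They also included GZMB by name (-0.54), and KLRK1 (-0.39) and TBX21 (-0.31) in single dose against control. KLRB1 in single dose against control was 0.026 with upper-quartile scaling, 0.0034 with no filter, 0.028 with DESeq2 and 0.72 after thinning. KLRK1 by name was 0.035 with upper-quartile scaling, 0.41 with the name suffix as a term, 0.0060 in dosed animals alone and 0.27 in multidose alone. With limma-voom TBX21 in single dose against control was 0.068, GZMB by name 0.19, and in multidose against single dose GZMA was -0.064, GZMB -0.52 and SERPINB9 -0.0065. With the suffix as a term GZMB was -0.082 and KLRK1 0.023 in multidose against single dose. In M8 and M9 libraries GZMH was 0.012, 0.0060 and 0.0056 in the 3 dosing comparisons. With the M1 name as a term GZMA was 0.0020 in multidose and GZMH 0.036 in single dose against control, and GZMK was -0.058 and NKG7 0.0069 in multidose against single dose. Leaving out a library gave ranges across 0 in multidose against control for GZMA (-0.56 to 0.13), in single dose against control for GZMH (-0.34 to 0.010), KLRK1 (-0.62 to 0.16), KLRB1 (-0.63 to 0.25) and TBX21 (-0.58 to 0.039), in multidose against single dose for GZMA (-0.14 to 0.39) and GZMB (-0.53 to 0.36), and by name for GZMB (-1.06 to 0.44) and KLRK1 (-0.12 to 0.27). The cause was not tested. SERPINB9 was below 0 against control in every setting run. GZMK and KLRB1, at 2 to 45 counts per library, are limited by depth, and all-gene medians shifted by less than 0.1 with the scaling.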

Other observations

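The ratio of the neighbouring genes GZMB and GZMH is given by library name and by group. GZMB counts per GZMH count came to 0.346 to 1 in M1 libraries (median 0.789) and 0.148 to 1.14 in M8 and M9 libraries (median 0.309). By dosing group the ratio was 0.148 to 0.923 in multidose libraries (median 0.5), 0.159 to 1 in single dose libraries (median 0.198) and 0.179 to 1.14 in vehicle controls (median 0.426). The ranges overlapped in each case, and the differences were not tested.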
